A study of Arabidopsis with 12 samples.

Results

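Seedlings of the Arabidopsis mutant bzip59 were compared with the wild type Col-0 in white light, to ask which transcripts differ between the genotypes before any shade is given. Per the labels, bzip59 is the insertion line SALK_024459, a single line, and Col-0 is the accession used as wild type. All seedlings were 7 days old, had grown in continuous white light and were taken whole for RNA. The comparison was between 6 of the 12 libraries, 3 of bzip59 and 3 of Col-0, both kept in white light. The spread behind its p-values was estimated over all 12 libraries. The other 6 libraries, 3 of bzip59 and 3 of Col-0, came from seedlings shaded for 2 h, with red over far-red light at 0.65, and they serve here as a second reading of the same genotypes. Levels are TPM, a share of the library corrected for transcript length, summed over the transcripts of a gene. Of 32833 genes in the table, 19587 averaged 1 TPM or more across the 6 white-light libraries and were tested.

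bZIP59, also called PosF21, is a transcription factor of bZIP group I, a small family whose proteins bind DNA as pairs through a basic region and a leucine zipper. Relatives such as VIP1 and bZIP29 are known from responses to osmotic and mechanical stress and from root growth, and bZIP59 itself is known for acting with LBD proteins when auxin induces callus. In white light, active phytochromes hold PIF transcription factors at a low level, and clock, photosynthesis and growth genes respond to that light signal.

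The white-light libraries were not equal in every technical respect. Each library of the series held 18950 to 19689 genes at 1 TPM or more, and read depth is unknown because TPM keeps no counts. Library 2 of bzip59 in white light was unlike the others, with a TMM factor (a scaling factor from the trimmed mean of gene ratios) of 0.841, against 0.934 to 1.1 in the other 11 libraries. Its deviation from the mean of its group was correlated with gene length across genes, at a Spearman rho of -0.57. Libraries 1 and 3 of that group had 0.44 and 0.34. Long genes of library 2 thus read low relative to libraries 1 and 3, and these values only set the libraries of the group against each other. The median log2 change of all genes was -0.16 for bzip59 against Col-0, and -0.02 after scaling by TMM factors, so list medians below are read against that shift. Among the shade libraries, jasmonate genes were highest in library 2 of bzip59 (524 TPM in sum, against 279 and 327 TPM in the other bzip59 libraries) and library 1 of Col-0 (691 TPM, against 321 and 318 TPM). Transcripts of the chloroplast genome summed to 1330, 1320 and 1950 TPM in bzip59, against 3500, 4880 and 1800 TPM in Col-0. Whether replicates were grown apart is not given in the sources used here, and the p-values therefore reflect the spread among these libraries alone, which may be technical. Because whole seedlings were used, fewer cells of a type and less RNA per cell cannot be told apart.

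The transcript of bZIP59 (AT2G31370) was measured first, as a check of the genotype labels. It stood at 3.85, 5.47 and 3.12 TPM in the bzip59 libraries, against 17.5, 22.6 and 21.6 TPM in the Col-0 libraries. The highest bzip59 library was below the lowest Col-0 library, and the mutant mean of 4.15 ± 1.2 TPM (SD, n = 3) was 20.2% of the Col-0 mean of 20.6 ± 2.71 TPM (SD, n = 3). bZIP59 fell by 2.09 on the log2 scale of TPM + 1 (SE 0.18, limma adjusted p = 0.0012). The gene was not silent in the mutant, and its 7 annotated transcripts were unevenly affected. Transcript 7, the largest part of the Col-0 signal in mean, was at 0.12, 0.10 and 0.16 TPM in bzip59. In Col-0 it was at 5.22, 17.97 and 12.12 TPM, and in Col-0 library 1 transcript 4 was higher, at 8.86 TPM. Transcript 4 was at 0.983 ± 0.0208 TPM in bzip59 and 5.09 ± 3.89 TPM in Col-0 (SD, n = 3 each), and transcript 3 at 0.407 ± 0.274 TPM in bzip59 and 2.65 ± 0.786 TPM in Col-0. Transcript 1 was the main remaining signal, at 1.82, 3.84 and 1.24 TPM in bzip59, where Col-0 had 0, 0 and 2.2 TPM. Transcript 7 made up 1.83% to 5.13% of the bZIP59 signal in bzip59, against 29.8% to 79.5% in Col-0, and such shares rest on how the quantification divided reads among overlapping transcripts.

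The chromosomal surroundings of bZIP59 were examined because an insertion can also touch nearby genes. Of the 5 annotated genes on either side, 8 were high enough to test, and 0 were called. Their changes ran from log2 -0.33 to 0.37, and 1 of the 8 had an unadjusted limma p under 0.05, against 15.7% of all genes. That gene was ADS2, a fatty acid desaturase gene next to bZIP59, at 132 ± 6.61 TPM in bzip59 and 102 ± 6.04 TPM in Col-0 (SD, n = 3 each; log2 0.37, limma adjusted p = 0.217). On the other side, the B-box gene STH (BBX25) was at 39.6 ± 1.36 TPM in bzip59 and 48.9 ± 9.15 TPM in Col-0.

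Across all tested genes, limma called 5 at an adjusted p under 0.05, or 0.0255% of the genes tested. The call took in 2 genes higher in bzip59 (0.0102%) and 3 lower (0.0153%), and all 5 differed by at least 1 on the log2 scale. The 2 that rose were AT1G75945 and AT3G57940, and the 3 that fell were bZIP59, QQS and ROC4. The call count was 8 with no filter on low genes, and 1, AT1G75945, when the 2 white-light groups were fitted alone, and it ran from 4 to 14 with single libraries left out.

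The largest called change was that of AT1G75945, a gene annotated as protein coding that carries neither a name nor a description in the table. It was at 34.2, 49.6 and 35.9 TPM in bzip59, against 0.41, 0 and 0.50 TPM in Col-0. The gene was thus near the bottom of the scale in every Col-0 library and among the moderately abundant transcripts in every bzip59 library. AT1G75945 rose by log2 4.97 (SE 0.18, limma adjusted p = 1.04e-07), and it kept its call in 26 of 26 fits, the one reported and 25 alternatives. The fits reuse the same libraries, and many leave the white-light change as it was, so they are not separate checks. AT1G75945 passed the filter only through bzip59, with all Col-0 libraries under 1 TPM. Of the 5 annotated genes on either side of it, 4 were tested and 0 were called, with changes between log2 -0.40 and 0.07.

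AT3G57940 encodes RNA cytidine acetyltransferase 2, one of a pair of enzymes that acetylate cytidine in ribosomal and transfer RNA. It was at 4.33, 2.83 and 3.95 TPM in bzip59 and at 0.15, 0.18 and 0.12 TPM in Col-0. All Col-0 libraries were under 1 TPM, and the gene passed the filter only through bzip59. AT3G57940 rose by log2 2.02 (SE 0.21, limma adjusted p = 0.00401) and kept its call in 24 of the 25 fits in which it was tested. The related RNA cytidine acetyltransferase 1 gene, AT1G10490, was at 6.88, 3.37 and 5.29 TPM in bzip59 and 7.12, 8.53 and 5.96 TPM in Col-0 (log2 -0.44, limma adjusted p = 0.41). Reads shared between such close relatives could be split between them, which leaves both levels uncertain.

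QQS (AT3G30720) is an orphan gene, found in Arabidopsis without relatives in other species, that is known for shifting carbon and nitrogen between starch and protein. It was at 2.65, 2.95 and 5.16 TPM in bzip59, against 18.9, 15 and 15.1 TPM in Col-0. The groups lay far apart for so low a gene, and QQS fell by log2 1.95 (SE 0.21, limma adjusted p = 0.0058), a call kept in 24 of 26 fits. Both abundant transcripts of QQS were lower, transcript 1 at 2.19 ± 1.01 TPM in bzip59 and 8.03 ± 2.57 TPM in Col-0, and transcript 2 at 1.05 ± 0.529 TPM in bzip59 and 7.05 ± 0.676 TPM in Col-0 (SD, n = 3 each).

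ROC4 (AT3G62030) encodes the chloroplast cyclophilin CYP20-3, a protein-folding enzyme of the stroma known to link redox state with cysteine synthesis. It was the most abundant of the 5, at 368, 392 and 420 TPM in bzip59, against 840, 902 and 695 TPM in Col-0. ROC4 fell by log2 1.04 (SE 0.14, limma adjusted p = 0.0388), with every bzip59 library below every Col-0 library. Its call was the least secure, because it was kept in 10 of 26 fits and ended with TMM factors (log2 -0.88, limma adjusted p = 0.17). ROC4 overlaps the annotated gene AT3G62040 on the chromosome, and the strand of the libraries is not given in the sources used here, so their reads may be mixed. AT3G62040 was at 20.2, 19.1 and 14.3 TPM in bzip59 and 25.7, 38.9 and 35.8 TPM in Col-0 (log2 -0.86, limma adjusted p = 0.18).

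**Figure D1:**
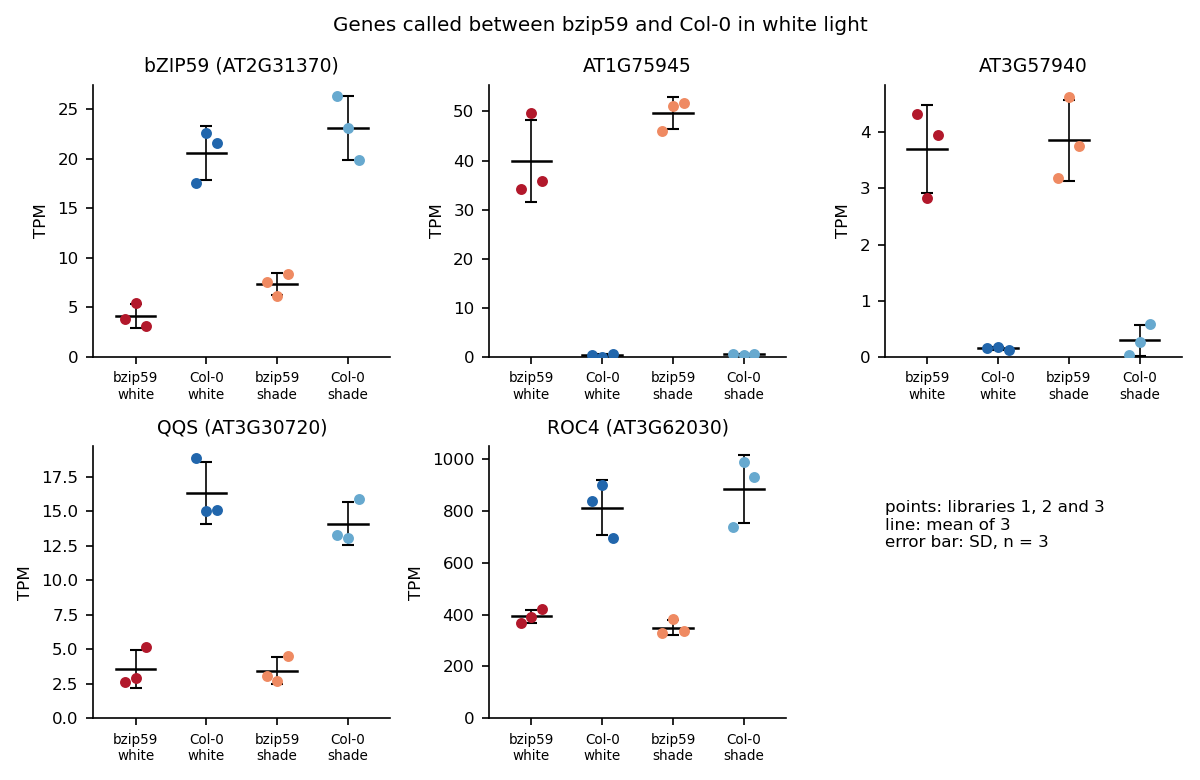
TPM of the 5 genes called between bzip59 and Col-0 in white light, for the 3 libraries of each genotype in white light and in shade, with the mean and SD (n = 3). In every panel the points of bzip59 and of Col-0 do not overlap in either light, with AT1G75945 between 34.2 and 51.8 TPM in bzip59 and at most 0.59 TPM in Col-0.

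The shade libraries share no sample with the white-light groups and gave a second reading of these 5 genes. All 5 differed in the same direction there, and 5 of 5 were called. In shade limma called 7 genes in all (0.0357%), 3 higher (0.0153%) and 4 lower (0.0204%). The spread of each gene was estimated over all 12 libraries together, so the calls in white light and in shade are not independent. With the 2 groups of each light fitted alone, 1 gene, AT1G75945, was called in both. AT1G75945 was at 46.0, 51.2 and 51.8 TPM in bzip59 shade and 0.59, 0.47 and 0.54 TPM in Col-0 shade (log2 5.05, limma adjusted p = 8.82e-08). AT3G57940 was at 3.19, 4.62 and 3.76 TPM in bzip59 shade and 0.04, 0.26 and 0.58 TPM in Col-0 shade (log2 1.92, limma adjusted p = 0.00675). QQS was at 3.09, 2.69 and 4.54 TPM in bzip59 shade and 13.3, 13.1 and 15.9 TPM in Col-0 shade (log2 -1.78, limma adjusted p = 0.00998). These values stand close to those of white light, with no overlap of genotypes for any of the genes. ROC4 was at 329, 385 and 337 TPM in bzip59 shade and 739, 988 and 930 TPM in Col-0 shade (log2 -1.33, limma adjusted p = 0.00675). bZIP59 itself was at 7.52, 6.15 and 8.32 TPM in bzip59 shade and 26.3, 23.1 and 19.9 TPM in Col-0 shade (log2 -1.53, limma adjusted p = 0.00998). Between 2 and 6 genes were called in both lights when single libraries were left out, with 2 without bzip59 shade 1 or bzip59 shade 2 and 3 without any 1 of the Col-0 shade libraries.

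The 2 further genes called in shade had the same sign in white light but missed the threshold there. AT1G27565, whose description in the table calls it an unknown protein, was at 0.17, 0 and 0 TPM in bzip59 and 2.35, 6.90 and 2.23 TPM in Col-0 in white light (log2 -2.06, limma adjusted p = 0.0685). In shade it was at 0.17, 0.16 and 0 TPM in bzip59 and 4.37, 5.83 and 6.26 TPM in Col-0 (log2 -2.54, limma adjusted p = 0.00998). AT1G67105, a noncoding RNA gene, was at 7.62, 11.1 and 10.2 TPM in bzip59 and 4.66, 4.69 and 3.75 TPM in Col-0 in white light (log2 0.98, limma adjusted p = 0.118). In shade it was at 7.81, 7.87 and 7.76 TPM in bzip59 and 1.94, 3.23 and 2.83 TPM in Col-0 (log2 1.28, limma adjusted p = 0.025).

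**Figure D2:**
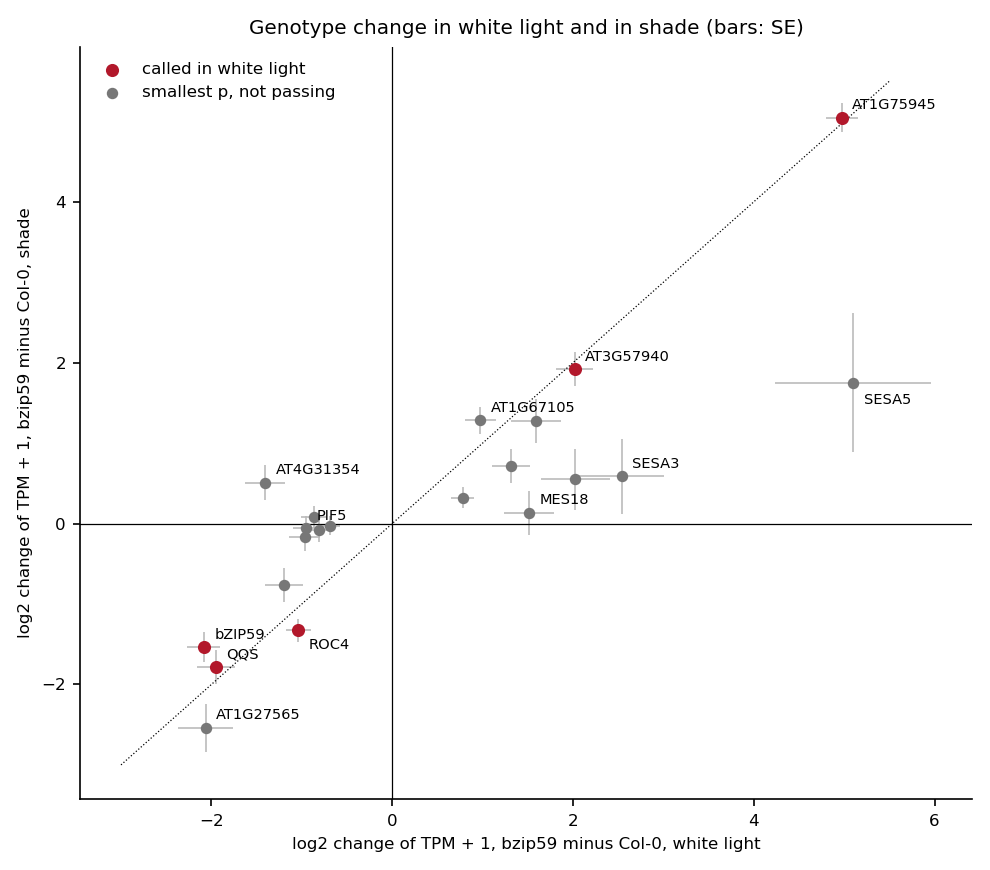
log2 change of TPM + 1 for bzip59 minus Col-0 in white light (x axis) and in shade (y axis), with SE bars, for the 5 called genes and for the 8 genes per direction with the smallest p that did not pass; the dotted line marks equal changes. The 5 called genes lie near the line, whereas SESA5, SESA3 and MES18 lie below it and AT4G31354 and PIF5 lie near or above 0 in shade.

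Below the threshold, far more genes leaned lower than higher in bzip59. An unadjusted limma p under 0.05 was reached by 3079 genes (15.7%), 480 of them higher (2.45%) and 2599 lower (13.3%). With TMM factors the same count was 2203 (11.2%), with 1130 higher (5.77%) and 1073 lower (5.48%), so the leaning went away with the scaling. The groups did not overlap for 552 genes higher in bzip59 (2.82%) and for 3086 lower (15.8%). The median 95% confidence interval reached 0.41 on either side of a change, and for 16916 genes (86.4%) the whole interval lay between log2 -1 and 1. An absolute change of at least 1 was seen in 421 genes, 198 higher and 223 lower, of which the 5 above passed.

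Among genes higher in bzip59 that did not pass, AT2G47780, which encodes a protein like rubber elongation factors, had the smallest p. It was at 3.99, 4.07 and 3.44 TPM in bzip59 and 0.67, 1.05 and 1.14 TPM in Col-0 (log2 1.31, limma adjusted p = 0.086). A pair of methyl esterase genes, of a family that removes methyl groups from hormone esters, also ranked here. MES8 was at 17.9 ± 1.8 TPM in bzip59 and 9.96 ± 0.462 TPM in Col-0 (SD, n = 3 each; log2 0.78, limma adjusted p = 0.104). MES18 was at 51.6, 54.2 and 65.2 TPM in bzip59 and 20.2, 23.4 and 14.9 TPM in Col-0 (log2 1.51, limma adjusted p = 0.118). Neither methyl esterase gene overlapped between the genotypes in white light, where 2.82% of all genes were higher without overlap. Both were named for their small p, which favours such separation. AT3G22235, described as a cysteine-rich membrane protein of stress tolerance, was at 101, 111 and 98.8 TPM in bzip59 and 46.6, 31.9 and 25.5 TPM in Col-0 (log2 1.59, limma adjusted p = 0.118). The noncoding RNA gene AT3G03215 was at 14.8, 12.3 and 13.1 TPM in bzip59 and 3.46, 3.97 and 0.98 TPM in Col-0 (log2 2.02, limma adjusted p = 0.119). The remaining genes of this group were AT1G67105, described above, and the seed albumin genes SESA5 and SESA3, described with the seed genes.

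Among genes lower in bzip59 that did not pass, PIF5 (AT3G59060), a phytochrome-interacting factor that promotes elongation, had 13.4, 11.2 and 13.3 TPM in bzip59 and 28.3, 23.3 and 24.5 TPM in Col-0 (log2 -0.95, limma adjusted p = 0.086). AT5G51790, a basic helix-loop-helix gene, had 4, 4.13 and 3.45 TPM in bzip59 and 7.48, 8.35 and 7.78 TPM in Col-0 (log2 -0.87, limma adjusted p = 0.086). AT4G31354 had 2.66, 1.99 and 2.41 TPM in bzip59 and 8.01, 9.63 and 6.25 TPM in Col-0 (log2 -1.41, limma adjusted p = 0.086). In each of these genes every bzip59 library was below every Col-0 library, as for 15.8% of all genes. PHT4;1, a phosphate transporter of the thylakoid membrane, had 32.8, 22.3 and 31.7 TPM in bzip59 and 54.5, 45.2 and 52.5 TPM in Col-0 (log2 -0.80, limma adjusted p = 0.118). The leucine-rich repeat gene AT2G15042 had 0.61, 0.27 and 0.36 TPM in bzip59 and 1.82, 3.15 and 1.85 TPM in Col-0 (log2 -1.20, limma adjusted p = 0.118). AT1G63980 had 65.3, 59.6 and 62.1 TPM in bzip59 and 92.2, 115 and 96.5 TPM in Col-0 (log2 -0.69, limma adjusted p = 0.104). The clock gene LNK4 completed this group and is given with the clock genes, and AT1G27565 was given above.

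For several of these genes the genotypes overlapped in shade, and the limma test of the difference between the lights called 0 genes (smallest limma adjusted p = 0.543, with 1581 genes or 8.07% at an unadjusted p under 0.05). PIF5 was at 25.2, 19.0 and 26.1 TPM in bzip59 shade and 27.0, 24.1 and 21.6 TPM in Col-0 shade. AT4G31354 was at 3.27, 3.14 and 3.63 TPM in bzip59 shade and 1.73, 3.34 and 1.40 TPM in Col-0 shade. In shade the genotypes overlapped for both genes, and neither difference between the lights passed the adjusted test. MES18 was at 13.8, 23.5 and 16.6 TPM in bzip59 shade and 10.8, 24.6 and 15.1 TPM in Col-0 shade. AT3G22235 kept its direction, with 44.9, 104 and 78.7 TPM in bzip59 shade and 26.1, 35.2 and 26.6 TPM in Col-0 shade (log2 1.28, limma adjusted p = 0.869).

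The pathways of a light-grown seedling were read through 36 gene lists, which held 590 tested genes. Of these, 1 gene, bZIP59 itself, was called by limma, so 35 lists held no called gene. The median change of 25 lists lay within 0.2 of the median of all genes. The lists that stood farther off were seed storage (1.85), hypoxia (0.39), carbon fixation (0.29), aliphatic glucosinolates (0.23), root hair markers (0.13), XTH and expansin genes (0.06) and the photosystem core (0.06) on the higher side, and the circadian clock (-0.51), dark and sugar starvation (-0.43), light harvesting (-0.40) and oxidative stress (-0.36) on the lower side. Several of these medians rested on few genes or on 1 library. The hypoxia median was -0.05 over genes averaging at least 5 TPM and 0.21 with no filter. It was 0.22 without bzip59 library 3 and 0.23 without Col-0 library 2. Root hair markers had a median of -0.18 without Col-0 library 2 and 0.07 without bzip59 library 1, and aliphatic glucosinolate genes had a median of 0.07 without Col-0 library 3. XTH and expansin genes had a median of -0.02 without bzip59 library 1 or Col-0 library 2. Of the 16 seed storage genes tested, 11 passed the filter on low levels through bzip59 alone, which bears on the median of that list.

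**Figure D3:**
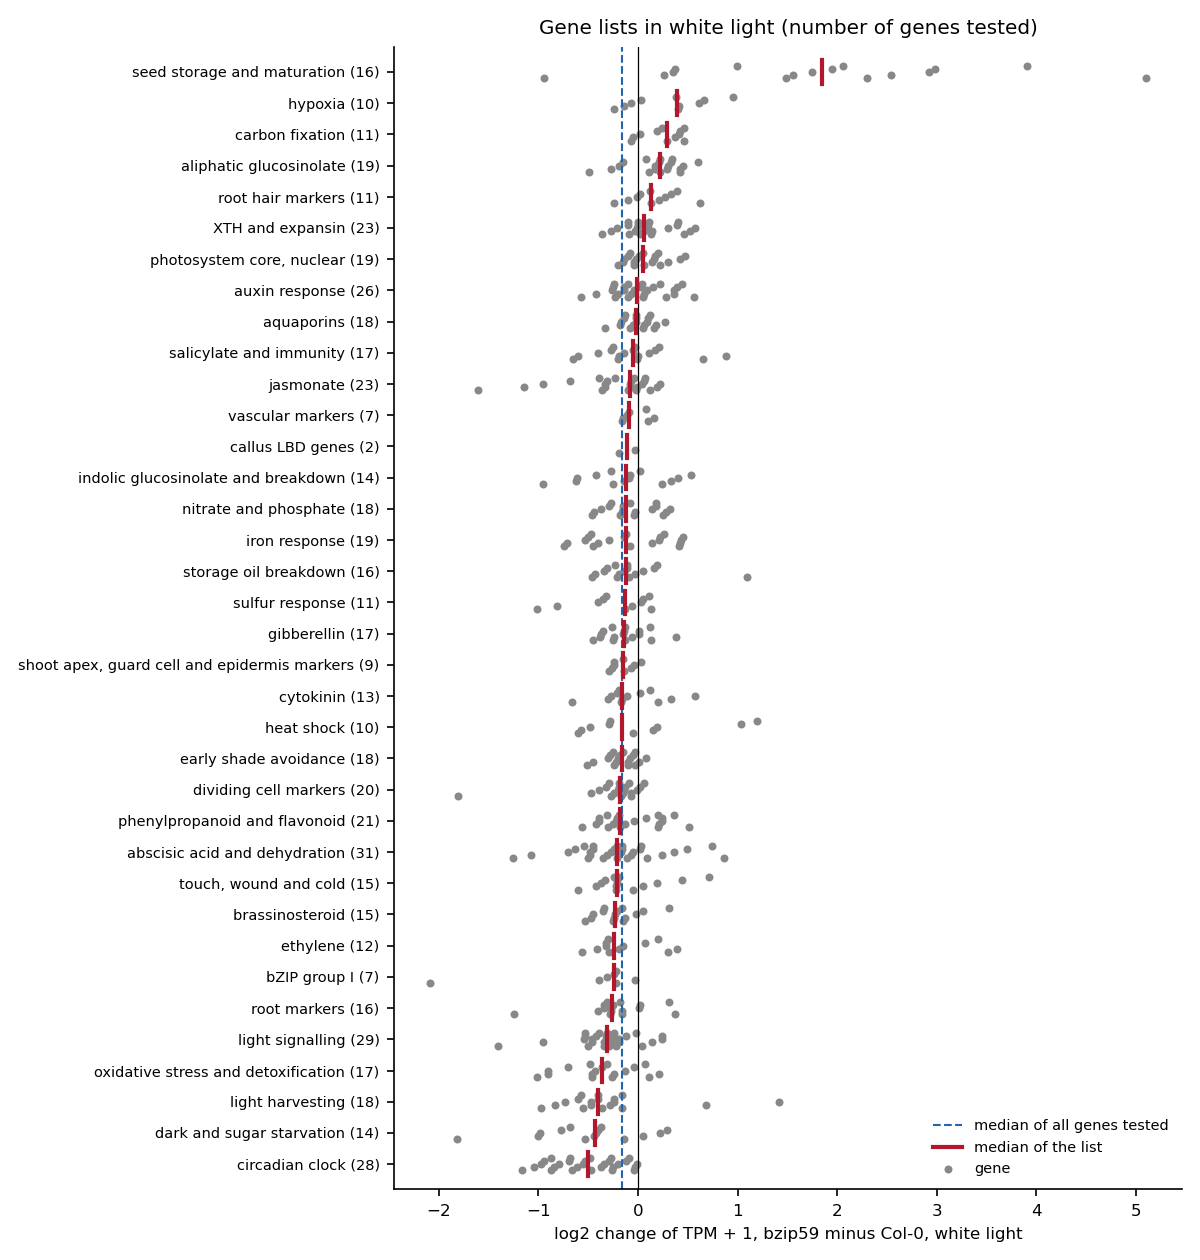
log2 change of TPM + 1 for bzip59 minus Col-0 in white light (x axis) of each tested gene in 36 lists (y axis, number of genes tested in brackets), with the median of each list and, as a dashed line, the median of all 19587 genes (-0.16). The seed storage list lies farthest to the right, at a median of 1.85 that is partly set by the filter (11 of its 16 genes passed through bzip59 alone), and the circadian clock list farthest to the left, at -0.51.

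All 28 tested clock genes had a lower mean in bzip59 on the log2 scale, or 23 of 28 after TMM scaling, against 72.8% and 53.4% of all genes on those scales, and 0 of the 28 passed the adjusted test. Genotypes were fully separated for 18 of 28, against 15.8% of all genes, and 18 had an unadjusted limma p under 0.05, against 13.3% of all genes. The median was log2 -0.51, against -0.16 for all genes. After TMM scaling the median was -0.36 and 11 had an unadjusted p under 0.05, against 5.48% of all genes.

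The clock genes CCA1, LNK2 and LNK4 had the smallest p-values of the list. CCA1, a morning repressor of evening genes, was at 26.5, 18.3 and 30.4 TPM in bzip59 and 49.1, 49.5 and 56.2 TPM in Col-0 (log2 -1.04, limma adjusted p = 0.118). Its close relative LHY was at 37.3, 32.6 and 38.3 TPM in bzip59 and 44.5, 72.9 and 53.0 TPM in Col-0 (log2 -0.61). In both genes no bzip59 library reached the lowest Col-0 library. The LNK genes encode coactivators that work with RVE proteins at evening promoters. LNK2 was at 20.9, 25.1 and 27.8 TPM in bzip59 and 48.9, 53.2 and 67.8 TPM in Col-0 (log2 -1.17, limma adjusted p = 0.118), the widest difference in the clock list. LNK4 (AT5G06980) was at 10.4, 11.5 and 10.9 TPM in bzip59 and 23.5, 17.3 and 27.3 TPM in Col-0 (log2 -0.97, limma adjusted p = 0.118). LNK3 was at 11.4, 15.4 and 12.9 TPM in bzip59 and 25.2, 21.6 and 33.1 TPM in Col-0, and LNK1 at 13.3, 9.15 and 11.1 TPM in bzip59 and 20.4, 14.9 and 20.5 TPM in Col-0. All 4 LNK genes were therefore lower in each bzip59 library than in any Col-0 library, as were 15.8% of all genes. No clock gene passed the adjusted test.

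The activator RVE8 was at 18.5, 15.7 and 27.2 TPM in bzip59 and 28.5, 47.8 and 36.0 TPM in Col-0, and its relative RVE4 at 54.8, 54.0 and 55.5 TPM in bzip59 and 78.3, 74.0 and 90.5 TPM in Col-0. The daytime repressor PRR9 was at 5.09, 5.16 and 4.69 TPM in bzip59 and 9.61, 8.71 and 11.6 TPM in Col-0, without overlap. PRR7 was at 16.3, 13.1 and 15.9 TPM in bzip59 and 36.7, 15.9 and 38.6 TPM in Col-0, where the low Col-0 value is that of library 2. TOC1, the evening repressor of CCA1, was at 38, 37.9 and 43.8 TPM in bzip59 and 49.8, 51.1 and 46.2 TPM in Col-0 (log2 -0.29). ELF4, a member of the evening complex, was at 95.4, 148 and 101 TPM in bzip59 and 127, 115 and 118 TPM in Col-0, and its genotypes overlapped, as they did for 10 of the 28 clock genes, among them LUX and GRP7.

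In shade the clock genes were not lower in bzip59 as a group, with a median of log2 0.03, 14 genes higher and 14 lower. The groups did not overlap in shade for 3 clock genes higher and 3 lower, against 4.59% and 5.22% of all genes, and 1 gene each way had an unadjusted limma p under 0.05, against 1.43% and 1.27% of all genes (2.7% together). The difference between the lights was positive for 25 of 28 clock genes, where its median over all genes was also positive (log2 0.153). It had an unadjusted limma p under 0.05 for 13 of the clock genes, against 8.07% of all genes, and 0 passed the adjusted test. The library of bzip59 that stood apart bears on the size of the clock result. Without it the clock median was -0.37, against -0.08 for all genes, and 15 of 28 had an unadjusted limma p under 0.05. In that fit 1904 of all 19587 genes tested had such a p, 1538 of them lower in bzip59. Per the labels the seedlings grew in continuous light, and the time of day at which each library was taken is not given in the sources used here.

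**Figure D4:**
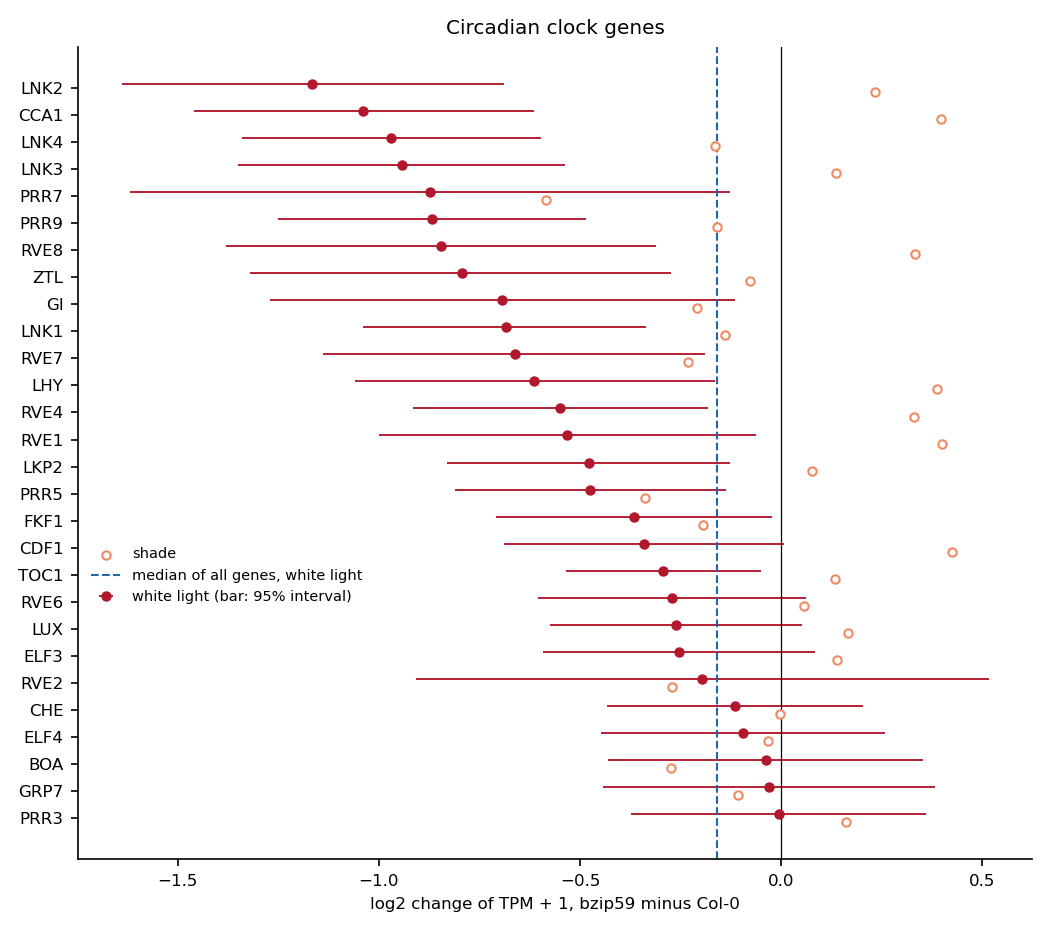
log2 change of TPM + 1 for bzip59 minus Col-0 (x axis) of 28 clock genes (y axis) in white light, with the 95% confidence interval, and in shade. In white light all 28 points lie below 0 (23 of 28 after TMM scaling) and 18 intervals exclude 0, whereas in shade 14 points lie above 0 and 14 below.

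Light-signalling genes leaned lower as well, with a median of log2 -0.31 over 29 genes, and of -0.16 after TMM scaling. Of the 29, 0 passed the adjusted test, 25 had a lower mean in bzip59 (23 after TMM scaling), against 72.8% of all genes (53.4%), and the groups did not overlap for 11, against 15.8% of all genes. Besides PIF5, the shade-signalling factor PIF7 was at 18.1, 17.1 and 21.5 TPM in bzip59 and 27.4, 30.8 and 25.3 TPM in Col-0 (log2 -0.54, limma adjusted p = 0.19). The blue-light receptor gene CRY2 was at 35.1, 28.5 and 29.0 TPM in bzip59 and 42.2, 42.2 and 43.4 TPM in Col-0 (log2 -0.46). PIF4, PIF3 and the red-light receptor genes PHYA and PHYB had overlapping groups. PHYB was at 19.1, 8.4 and 15.7 TPM in bzip59 and 17.2, 16.9 and 16.6 TPM in Col-0, so its lower mean rests on library 2. HY5, which promotes growth suited to light, was at 27.4, 36.6 and 31.0 TPM in bzip59 and 36.7, 37.3 and 40.4 TPM in Col-0 (log2 -0.27, limma adjusted p = 0.457). SPA2, a partner of the COP1 ubiquitin ligase, was at 3.22, 0 and 4.61 TPM in bzip59 and 6.69, 7.09 and 6.08 TPM in Col-0, with the 0 again in library 2.

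Early shade avoidance genes were low in both genotypes, and 0 of 18 passed, with a median of log2 -0.16. The brake on elongation HFR1 was at 4.17, 5.15 and 4.79 TPM in bzip59 and 5.89, 6.38 and 9.41 TPM in Col-0 (log2 -0.51, limma adjusted p = 0.252). HB-2, a homeodomain gene that shade induces quickly, was at 6.81, 5.85 and 5.84 TPM in bzip59 and 6.91, 8.94 and 5.8 TPM in Col-0. IAA29, an auxin-response repressor, was at 1.03, 0.58 and 1.01 TPM in bzip59 and 1.26, 1.25 and 1.00 TPM in Col-0, and YUC8, an auxin synthesis gene, had overlapping groups. The other bZIP group I genes, 6 of which were tested, were all lower in mean, as were 72.8% of all genes. After TMM scaling the exception was bZIP52, which was higher (log2 0.12), and 53.4% of all genes were lower. VIP1 was at 36.8, 42.4 and 38.7 TPM in bzip59 and 48.6, 51.1 and 47.3 TPM in Col-0 (log2 -0.31, or -0.16 after TMM scaling, limma adjusted p = 0.254). bZIP29 was at 11.0, 6.66 and 9.27 TPM in bzip59 and 12.1, 11.7 and 11.8 TPM in Col-0, and bZIP52 at 9.65, 9.23 and 9.95 TPM in bzip59 and 10.6, 8.68 and 10.2 TPM in Col-0.

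Photosynthesis lists leaned in different directions. Of 18 light-harvesting genes, which encode the chlorophyll-binding antenna proteins, 0 passed, 16 had a lower mean in bzip59 (14 after TMM scaling), against 72.8% of all genes (53.4%), and the groups did not overlap for 9 lower genes, against 15.8% of all genes, and 1 higher gene, against 2.82% of all genes. Their median was log2 -0.40, and -0.25 after TMM scaling. LHCB2.1 was at 621, 427 and 537 TPM in bzip59 and 1190, 820 and 1090 TPM in Col-0 (log2 -0.97, limma adjusted p = 0.16). LHCA1 was at 2310, 2180 and 2280 TPM in bzip59 and 3670, 2710 and 3630 TPM in Col-0. The other 2 genes were higher in mean, LHB1B2 and LHCB4.3. LHB1B2 was at 501, 3890 and 2490 TPM in bzip59 and 2150, 253 and 469 TPM in Col-0 (log2 1.41, limma adjusted p = 0.4), with overlapping genotypes and wide spread in both. LHCB4.3 was without overlap, with 57.8 ± 8.13 TPM in bzip59 and 36.6 ± 11.8 TPM in Col-0 (SD, n = 3 each; log2 0.68, limma adjusted p = 0.245). The summed antenna level was 38900, 36930 and 39780 TPM in bzip59 and 53370, 38720 and 53700 TPM in Col-0, so Col-0 library 2 stood at the level of the mutant. Without that library the list median was -0.62, and without Col-0 library 3 it was -0.28. Reads of antenna genes with nearly the same sequence, such as CAB1, CAB2 and CAB3 or LHB1B1 and LHB1B2, may have been divided among them.

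Carbon-fixation genes had a median of log2 0.29, with 0 of 11 past the test, 9 of 11 higher in mean (11 after TMM scaling), against 27.2% of all genes (46.6%), and 2 higher without overlap, against 2.82% of all genes. The median was 0.16 with quantile scaling and 0.18 without Col-0 library 3. RBCS1A, the most abundant Rubisco small subunit gene, was at 24900, 26100 and 27800 TPM in bzip59 and 19800, 21700 and 19300 TPM in Col-0 (log2 0.37, limma adjusted p = 0.257). RBCS2B was at 12600, 14400 and 13700 TPM in bzip59 and 11100, 11700 and 7910 TPM in Col-0. The Rubisco activase gene RCA had overlapping groups, with 5860, 3280 and 5440 TPM in bzip59 and 5550, 4710 and 4460 TPM in Col-0. The summed carbon-fixation level was 65240, 70920 and 70960 TPM in bzip59 and 59480, 57210 and 46650 TPM in Col-0, without overlap. Genes of the photosystem cores had a median of log2 0.06, with 3 of 19 higher and 1 lower without overlap, against 2.82% and 15.8% of all genes, and without Col-0 library 2 the median was -0.01. Genes that respond to darkness and sugar shortage had a median of log2 -0.43, with 0 of 14 past the test. TPS8, of the trehalose phosphate synthase family, was at 14.7, 7.97 and 13.8 TPM in bzip59 and 25.5, 20.2 and 27.6 TPM in Col-0 (log2 -0.98, limma adjusted p = 0.151).

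**Figure D5:**
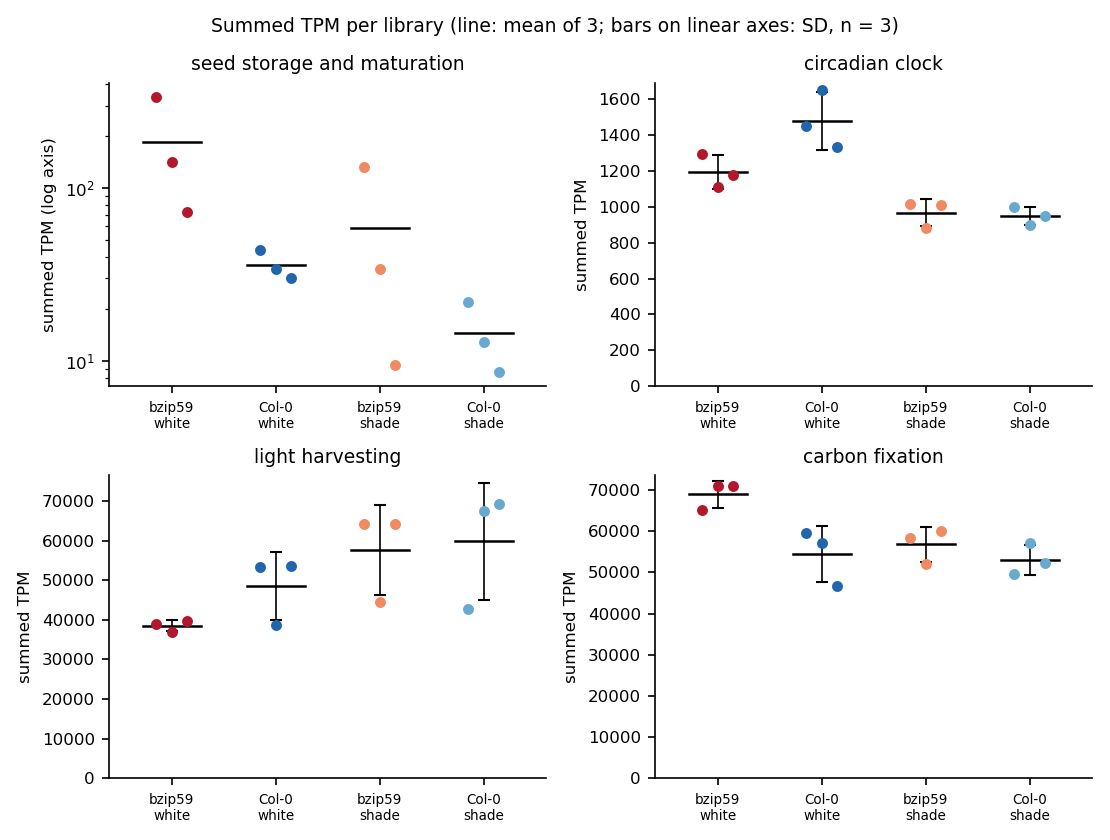
Summed TPM of 4 gene lists in the 3 libraries of each genotype in white light and in shade, with the mean (and, on the linear axes, the SD, n = 3); the seed storage axis is logarithmic. In white light seed storage and carbon fixation sums lie higher in all bzip59 libraries than in any Col-0 library. Clock sums lie lower, at 1296 TPM at most in bzip59 and 1332 TPM at least in Col-0. For light harvesting Col-0 library 2 (38720 TPM) falls among the bzip59 libraries. Sums of some lists not drawn, such as light signalling and brassinosteroid genes, also lie lower in all bzip59 libraries.

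Transcripts of seed storage and seed maturation, which normally fade after germination, were higher in bzip59 in most cases. The 19 listed genes in the table summed to 337, 142 and 72.8 TPM in bzip59, against 44.0, 34.2 and 30.0 TPM in Col-0. Every bzip59 library lay above every Col-0 library, but the bzip59 libraries differed more among themselves than the Col-0 libraries did. In Col-0 6, 8 and 4 of the 19 genes were listed at 0, where 0, 0 and 2 were at 0 in bzip59. Of the 16 that passed the filter 11 had a Col-0 mean under 1 TPM and passed through bzip59 alone, so their count and median describe that choice. The groups did not overlap for 12 higher genes (2.82% of all genes) and 1 lower gene, and 0 of the 16 passed the adjusted test.

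SESA5, a seed albumin gene, was at 76.4, 49.3 and 11.9 TPM in bzip59 and 0, 0.09 and 0.14 TPM in Col-0 (log2 5.10, SE 0.87, limma adjusted p = 0.118). SESA3 was at 13.3, 1.69 and 5.75 TPM in bzip59 and 0, 0 and 0.32 TPM in Col-0 (log2 2.54, limma adjusted p = 0.118). Albumins and cruciferins are the main storage proteins of the seed. CRU3, a cruciferin of the storage globulins, was at 42.7, 12.9 and 4.70 TPM in bzip59 and 0, 0 and 0.03 TPM in Col-0. CRA1, another cruciferin, was at 66.7, 19.7 and 7.55 TPM in bzip59 and 2.91, 1.55 and 1.45 TPM in Col-0. For all 4 genes the genotypes did not overlap, and the span among bzip59 libraries was several-fold. The oil-body gene OLEO1 was at 14.0, 4.36 and 5.01 TPM in bzip59 and 0.54, 1.22 and 0.95 TPM in Col-0. The seed peroxiredoxin gene PER1 was the lower exception, at 8.71, 5.69 and 2.62 TPM in bzip59 and 15, 9.31 and 9.18 TPM in Col-0 (log2 -0.95, limma adjusted p = 0.314). EM6 and OLEO2, both of late seed maturation, had overlapping groups. The list median of 1.85 was 1.36 without bzip59 library 1, the highest of the 3, 1.55 over all 19 genes with no filter, and 2.39 and 3.16 with pseudocounts of 0.5 and 0.1.

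In shade the seed genes overlapped between genotypes for the most part. Their sums were 132, 34.1 and 9.45 TPM in bzip59 shade and 21.8, 12.9 and 8.60 TPM in Col-0 shade, and 2 of 16 genes were higher without overlap, against 4.59% of all genes in shade. Among genes that break down storage oil, 0 of 16 passed and the median was log2 -0.12. The glyoxylate-cycle gene ICL was at 27.6 ± 4.03 TPM in bzip59 and 12.6 ± 3.05 TPM in Col-0, without overlap (SD, n = 3 each; log2 1.09, limma adjusted p = 0.252). Its partner MLS overlapped, at 13.1, 6.92 and 8.65 TPM in bzip59 and 11.4, 4.96 and 8.90 TPM in Col-0.

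Hormone lists lay near the median of all genes. Abscisic acid and dehydration genes had 0 of 31 past the test, 7 lower without overlap, against 15.8% of all genes, and a median of log2 -0.21. ABF4, a bZIP activator of abscisic acid responses, was at 21.4, 16.6 and 22.2 TPM in bzip59 and 27.1, 27.2 and 30.4 TPM in Col-0 (log2 -0.48, limma adjusted p = 0.18). The dehydration gene RD29B was at 4.61, 1.85 and 2.28 TPM in bzip59 and 14.0, 7.13 and 4.84 TPM in Col-0. Auxin-response genes had a median of log2 -0.01 with 0 of 26 past the test, and 13 were higher and 13 lower in mean. The auxin-conjugating gene GH3.5 was at 14.2, 8.61 and 11.3 TPM in bzip59 and 17.2, 13.9 and 20.6 TPM in Col-0, with overlap. Brassinosteroid genes had a median of log2 -0.23 and 0 of 15 past the test, and the synthesis gene DET2 was at 17.1, 15 and 17.1 TPM in bzip59 and 20.9, 21.8 and 20.2 TPM in Col-0. Jasmonate genes had a median of log2 -0.08 and 0 of 23 past the test, with the storage protein gene VSP1 at 7.48, 4.29 and 3.47 TPM in bzip59 and 12.2, 13.4 and 10.4 TPM in Col-0. The gibberellin receptor gene GID1C was at 8.65, 7.49 and 8.39 TPM in bzip59 and 11.1, 11.2 and 12.3 TPM in Col-0, in a list with 0 of 17 past the test. Of brassinosteroid, jasmonate and gibberellin genes, 4 of 15, 6 of 23 and 3 of 17 were lower without overlap, against 15.8% of all genes. In these lists 0 genes were higher without overlap.

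Markers of tissues were read to compare what the seedlings held. Root markers summed to 4701, 2826 and 4143 TPM in bzip59 and 4245, 3174 and 4553 TPM in Col-0, with 0 of 16 called and 0 of the 17 genes in the table listed at 0. Root hair markers summed to 80.2, 46.0 and 52.7 TPM in bzip59 and 59.3, 26.6 and 77.0 TPM in Col-0, with 1 of 11 at 0 in Col-0 library 2. Neither root sum separated the genotypes. Markers of dividing cells summed to 360, 218 and 246 TPM in bzip59 and 304, 348 and 291 TPM in Col-0. Vascular markers summed to 86.4, 48.7 and 57.0 TPM in bzip59 and 78.7, 45.6 and 72.5 TPM in Col-0. Markers of the shoot apex, guard cells and epidermis summed to 505, 328 and 439 TPM in bzip59 and 535, 380 and 489 TPM in Col-0. The genotypes overlapped for all 5 of these sums, and each was lowest among bzip59 libraries in library 2.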

How the data were processed

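Transcripts were measured by RNA-seq of poly(A)-selected RNA from whole seedlings, per the labels' protocols. The submitters' processing notes name fastp, cutadapt, HISAT2, DESeq2 and the build TAIR10, without versions. Which tool computed TPM is not given in the sources used here. Deposited by the authors were TPM values per transcript for 12 libraries, which were summed over 54013 transcripts to 32833 genes; RefSeq locus tags (TAIR10.1, used for names and neighbours) covered 32548. TPM is no count, so read depth is unknown and the precision rests on 3 libraries per group.

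Genes averaging 1 TPM or more across the 6 white-light libraries were tested on log2(TPM + 1) with limma 3.58.1 (intensity trend) in R 4.3.3, in a single fit of 4 group means over all 12 libraries. Contrasts were bzip59 minus Col-0 in white light and in shade, and their difference. A call is a Benjamini-Hochberg adjusted p under 0.05 over all genes tested; p-values are two-sided. Fold changes on this scale understate changes of low genes. TMM factors were computed on TPM. The fit was tested on simulated data. Figures used Python 3.11.15 and matplotlib 3.10.9.

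The comparison and the 36 gene lists (659 of 664 entries matched their locus, and 658 of them were measured) were chosen with earlier results of these data known. Named were bZIP59, 5 neighbours on either side, up to 12 called genes per direction, the 8 genes per direction with the smallest p that did not pass, called list members, and up to 3 members with the smallest p of a list without a call; further list members are named for their role, after their values were seen. Alternatives were pseudocounts of 0.5 and 0.1, other filters (none, a mean of 5 TPM, all 12 libraries), TMM and quantile scaling, removal of a gene length trend, no intensity trend, the 2 groups alone, a replicate block, and libraries left out.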

Additional observations from a re-analysis of the deposited data

How the results depend on the processing

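The direction of bZIP59, AT1G75945, AT3G57940, QQS and ROC4 was kept in each of the 25 alternative fits that tested them. In many of these fits it could not change. Other filters, no intensity trend, the 2 groups alone, the replicate block and left-out shade libraries leave the white-light change as it was. With no overlap between the genotypes, leaving out a single white-light library could not turn the sign either. Depth is unknown from TPM, and 3 libraries per group limit the precision. The white-light count of 5 was 8 with no filter on low genes and 1 with the 2 groups alone, and between 4 and 14 with single libraries left out: 11 without bzip59 white light 1, 9 without bzip59 white light 2, 10, 11 and 14 without Col-0 white light 1, 2 and 3, and 8 without bzip59 shade 2. With the 2 groups alone bZIP59 kept its change of log2 -2.09 at a limma adjusted p of 0.0794, and it ran from -2.26 to -1.94 with single libraries left out. Leaving out bzip59 white light 2, which stood apart, called SESA3 (log2 3.16) and M10 (2.46); leaving out Col-0 white light 2 called LNK4 (-1.14) and COL5 (-1.07); leaving out bzip59 shade 2 called LNK2 and PIF5; leaving out bzip59 shade 1 or 3 called SESA5.

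In shade the count of 7 was 2 with the 2 groups alone and 2 to 7 with single libraries left out (2 without bzip59 shade 2, and 4 without bzip59 shade 1, Col-0 shade 1 or Col-0 shade 2). Of the genes called in both lights (5), 2 were left with the gene length trend removed, 1 with the 2 groups alone, 3 without both white-light libraries numbered 2, and 2 to 6 with single libraries left out. List genes called (1) numbered 0 with the 2 groups alone, 2 without both libraries numbered 2, and 1 to 3 with single libraries left out. The test of the difference between the lights called 2 genes with no filter, without both libraries numbered 2 or without Col-0 white light 3, and 1 without bzip59 white light 1 or 2. The replicate numbers did not pair the libraries (correlations 0.11, 0.04 and -0.06), so no replicate block was used; with the replicate block 4 genes were called in white light, ROC4 being lost (limma adjusted p = 0.0551), and with the block and TMM factors 4, of which 3 were also called in shade. The cause of these differences was not tested.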

Other observations

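Genes that low oxygen induces had a median of log2 0.39 in bzip59 against Col-0 in white light, over 10 tested genes, with 0 past the test, and of -0.05 over those averaging at least 5 TPM. The hemoglobin gene HB1 was at 11.7, 37.3 and 27.0 TPM in bzip59 and 11.6, 10.1 and 12.5 TPM in Col-0 (log2 0.95, limma adjusted p = 0.269). PCO1, an oxygen-sensing cysteine oxidase gene, was at 2.66, 6.37 and 7.23 TPM in bzip59 and 3.70, 2.79 and 2.13 TPM in Col-0. For both genes bzip59 library 1 lay within the range of Col-0. The genotypes also overlapped for the remaining 8 genes.

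Of 17 genes of oxidative stress and detoxification 0 passed, and the median was log2 -0.36 in white light and -0.39 in shade. CYP81D11, a cytochrome P450 gene of detoxification, was at 48.4, 20.7 and 26.2 TPM in bzip59 and 62.5, 50.7 and 72.1 TPM in Col-0 (log2 -1.01, limma adjusted p = 0.219). AOX1A, the alternative oxidase gene of mitochondria, was at 28.5, 17.9 and 24.5 TPM in bzip59 and 33.7, 31.6 and 29.7 TPM in Col-0. Heat-shock genes were split, with HSFA7A at 16, 19.2 and 16.8 TPM in bzip59 and 26.4, 26.2 and 27.8 TPM in Col-0, and the small heat-shock protein gene HSP17.6A at 4.32, 2.07 and 4.33 TPM in bzip59 and 1.27, 0.59 and 0.99 TPM in Col-0. Among iron genes the ferric reductase gene FRO3 was at 15.5 ± 2.91 TPM in bzip59 and 26.2 ± 2.23 TPM in Col-0 (SD, n = 3 each; log2 -0.74, limma adjusted p = 0.144). The defence regulator WRKY33 was at 13.1, 9.46 and 10.6 TPM in bzip59 and 16.2, 16.8 and 18.3 TPM in Col-0 (log2 -0.60). The root barrier gene ESB1 was at 2.56, 1.45 and 1.64 TPM in bzip59 and 4.25, 11.6 and 3.67 TPM in Col-0 (log2 -1.25). Lower without overlap were 2 of 19 iron genes, 2 of 17 immunity genes and 1 of 16 root markers, against 15.8% of all genes. On the higher side 1 immunity gene had no overlap, against 2.82% of all genes. In these lists 0 genes passed the adjusted test.

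EXPA5 and EXPA11 are expansin genes, whose products loosen cell walls. EXPA5 was at 30.7 ± 5.46 TPM in bzip59 and 20.2 ± 3.11 TPM in Col-0 (SD, n = 3 each; log2 0.58, limma adjusted p = 0.269). EXPA11 was at 27.4, 25.4 and 26.6 TPM in bzip59 and 19.8, 14.0 and 21.4 TPM in Col-0. Over the list of XTH and expansin genes 0 of 23 passed, and 5 were higher and 1 lower without overlap, against 2.82% and 15.8% of all genes. The ribonucleotide reductase gene TSO2, a marker of DNA synthesis, was listed at 0 in all 3 bzip59 libraries and at 0, 41.9 and 0 TPM in Col-0, a value of a single library.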
